A study of Mus musculus with 6 samples.

Results

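The 10 genes described here encode CXC chemokine ligands, the small secreted proteins that steer leukocytes through CXC receptors. They were chosen by symbol, as Cxcl1, Cxcl2, Cxcl3, Cxcl5, Cxcl9, Cxcl10, Cxcl11, Cxcl12, Cxcl13 and Cxcl16, from the 24346 genes measured. RNA sequencing compared mouse splenic dendritic cells, enriched for CD11c by autoMACS magnetic sorting, after IL-33 (3 libraries) or PBS, the vehicle (3 libraries). IL-33 is an alarmin of the IL-1 family, and the series title asks about its action on dendritic cells. The labels give no strain, age, dose, time or route, and do not say whether replicates are separate animals or cultures. The p-values thus reflect only the variation among these 6 libraries, which may be technical.

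CXC ligands fall into groups by receptor. Cxcl1, Cxcl2, Cxcl3 and Cxcl5 carry a glutamate-leucine-arginine (ELR) motif and draw neutrophils through CXCR2, and myeloid cells make them quickly after NF-kB signalling. Cxcl9, Cxcl10 and Cxcl11 are interferon-induced ligands of CXCR3, the receptor of effector T cells and NK cells. Cxcl12 and Cxcl13 are mainly stromal products that act through CXCR4 and CXCR5 and place cells within lymphoid tissue, while Cxcl16 is made as a membrane-bound ligand of CXCR6 and is released by the protease ADAM10.

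Values are FPKM (sequenced fragments per kilobase of transcript, scaled by sequencing yield), and levels are given as mean ± SD with n = 3 per group. A log2 change is the IL-33 mean less the PBS mean of log2(FPKM + 1), given with its standard error (SE). It understates the change of genes of low level. The adjusted p comes from limma over all 11518 tested genes, those reaching 1 FPKM in 3 or more of the 6 libraries, and the threshold was 0.05. FPKM carries no counts, but low values fell in even steps. Read as single fragments, these steps gave depths of 0.946 to 1.22 relative to PBS replicate 1, with no split between the groups. They gave whole fragment numbers for 9 of the 10 ligands. A step also holds any scaling between libraries made before deposit, so these depths need not be the sequencing yields. The sum of FPKM did split the groups, at 614522 to 641412 with PBS and 778391 to 841884 with IL-33. Scaling all libraries to an equal total shifted the log2 changes of single tested genes by a median of -0.314. The median change itself went from 0.01 to -0.29, so changes are also given under that scaling. The 6 listed dendritic cell markers were all present. As deposited, 4 rose (Itgax, H2-Ab1, H2-Aa and Cd74) and 2 fell (Flt3 and Zbtb46), where 28.0% of all tested genes rose and 25.5% fell. Equal totals gave 3 higher and 2 lower, against 11.1% and 50.7% of all tested genes. Itgax, which encodes CD11c, was at 241 ± 11.8 FPKM with PBS, against 283 ± 15.1 FPKM under IL-33. Its log2 change of 0.23 as deposited was smaller in size than that median shift of -0.314, so its rise depends on the scaling. Flt3, a growth factor receptor of dendritic cells, fell from 114 ± 5.85 to 74.8 ± 10.8 FPKM, and Zbtb46, their transcription factor, fell from 36.9 ± 0.745 to 23.5 ± 1.94 FPKM.

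Of the 10 ligands, 5 passed the filter on low values, Cxcl1, Cxcl2, Cxcl9, Cxcl10 and Cxcl16, and all 5 passed the test. Cxcl1, Cxcl2, Cxcl10 and Cxcl16 rose and Cxcl9 fell. Among all tested genes, 28.0% rose and 25.5% fell. The 3 libraries of one group lay wholly above the other for each of the 5, which also held for 32.7% of tested genes in the higher direction and 30.9% in the lower. A rise or fall as such was thus common in these cells. Cxcl1 was below 1 FPKM in every PBS library and passed the filter only through the 3 IL-33 libraries. That its groups lay apart was therefore fixed by the filter and adds no support, and Cxcl1 is included in the median that follows. The median change of the 5 tested ligands was 1.04, beside 0.01 for all tested genes. Without the filter, 5 ligands rose (the same 4 and Cxcl3) and 0 fell, where 18.5% of 17265 genes rose and 17.0% fell.

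**Figure D1:**
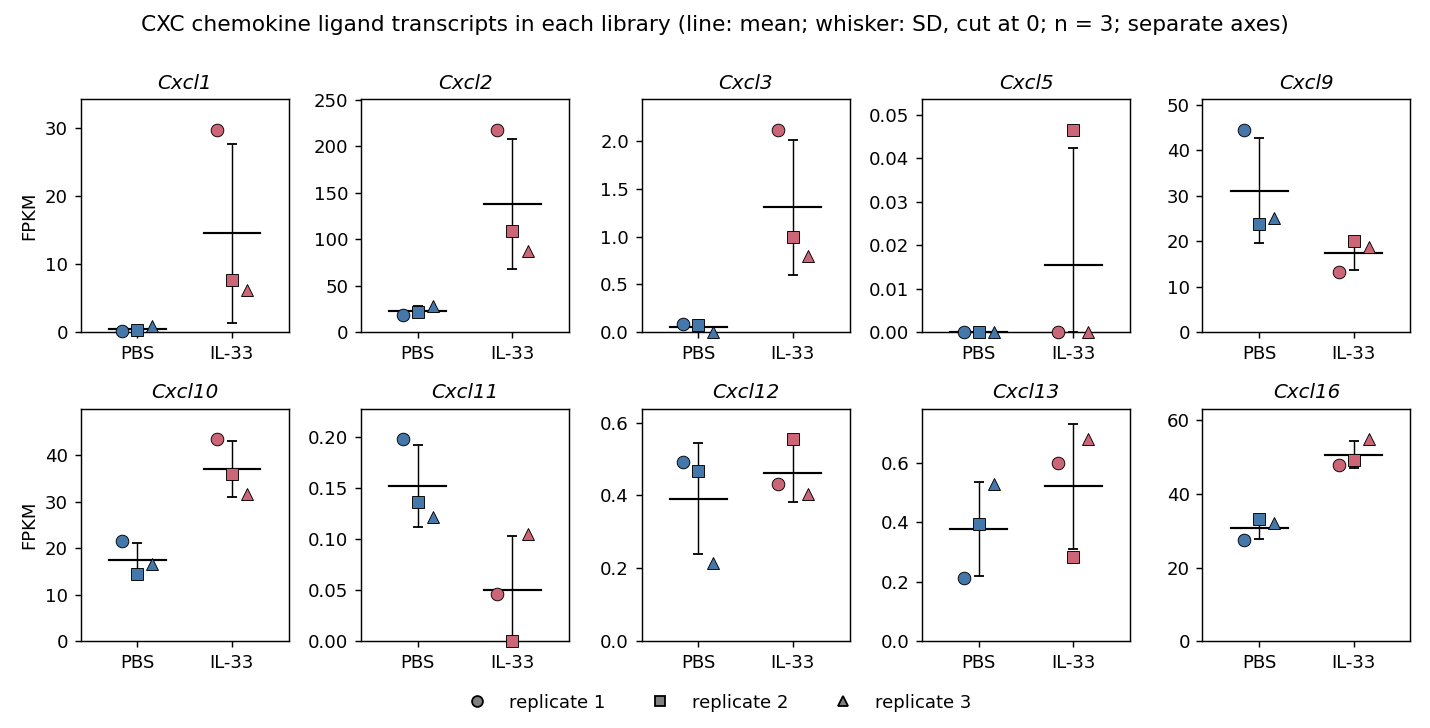
FPKM of each of the 10 CXC ligands (vertical axes, separate for each gene) in the 3 PBS and 3 IL-33 libraries (points); lines give the mean and whiskers the SD, cut at 0. The groups lie apart for Cxcl1, Cxcl2, Cxcl3, Cxcl9, Cxcl10, Cxcl11 and Cxcl16 and overlap for Cxcl5, Cxcl12 and Cxcl13.

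Cxcl1, Cxcl2 and Cxcl3 had the largest log2 changes of the family, and these ELR ligand genes lie together on chromosome 5. In mm10, Cxcl3 spans chr5:90786103-90789600, Cxcl1 spans chr5:90891241-90893115 and Cxcl2 spans chr5:90903871-90905938, all on the plus strand. The stretches just upstream of their start sites are shown because the 3 genes moved together. They come from RefSeq promoters of GRCm38.p6, the assembly also called mm10. Each is cut to lie upstream of both the RefSeq and the GENCODE start, at chr5:90785851-90786100 for Cxcl3, chr5:90890995-90891240 for Cxcl1 and chr5:90903649-90903870 for Cxcl2. Capitals mark GGAATTTCC, a form of the kappaB motif that NF-kB binds.
Cxcl1: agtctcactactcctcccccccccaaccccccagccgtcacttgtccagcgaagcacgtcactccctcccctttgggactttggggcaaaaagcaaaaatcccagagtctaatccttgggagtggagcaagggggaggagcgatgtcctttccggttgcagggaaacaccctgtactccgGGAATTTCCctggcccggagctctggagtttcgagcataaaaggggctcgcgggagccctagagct
Cxcl2: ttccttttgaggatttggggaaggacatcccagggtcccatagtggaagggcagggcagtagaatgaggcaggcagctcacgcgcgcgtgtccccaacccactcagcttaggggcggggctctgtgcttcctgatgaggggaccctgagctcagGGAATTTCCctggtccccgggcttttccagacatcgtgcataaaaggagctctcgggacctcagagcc
Cxcl3: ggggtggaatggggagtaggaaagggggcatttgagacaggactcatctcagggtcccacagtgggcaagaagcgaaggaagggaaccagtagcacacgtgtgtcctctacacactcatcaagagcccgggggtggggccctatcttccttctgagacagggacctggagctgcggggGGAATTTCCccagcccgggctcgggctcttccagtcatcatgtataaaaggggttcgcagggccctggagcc
The motif starts at -70 in Cxcl1, -96 in Cxcl2 and -72 in Cxcl3, counted from the RefSeq start site. On either strand, GGAATTTCC was present in 94 of 32851 RefSeq promoters searched over the same 250 bases (0.286%). A TATA-like ATAAAA follows at -34, -57 and -29, and 17.0% of promoters hold those letters on either strand. The uncut 250-base windows were also aligned in pairs, with gapped positions left out. They were 69.7% identical for Cxcl1 and Cxcl2, 72.3% for Cxcl1 and Cxcl3 and 72.6% for Cxcl2 and Cxcl3. Every other pair of ligands with a promoter lay between 56.4% (Cxcl2 and Cxcl12) and 66.5% (Cxcl3 and Cxcl10). A match is a description of letters, and binding was not measured. The motifs were picked after the sequences were seen.

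Cxcl2, also called MIP-2, was the most abundant ELR ligand in both groups. It stood at 18.5, 21.3 and 28.0 FPKM in PBS replicates 1 to 3, and the IL-33 replicates reached 217, 109 and 87.2 FPKM. Every IL-33 library lay above every PBS library, and replicate 1 was the highest. The mean went from 22.6 ± 4.89 to 138 ± 69.8 FPKM, a ratio of 6.10, or 4.34 without IL-33 replicate 1. Its log2 change of 2.46 (SE 0.32) had an adjusted p of 0.00117 in limma, and was 2.13 with equal totals. Cxcl2 was the most abundant of the 10 ligands in every IL-33 library and in none of the PBS libraries.

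Cxcl1, known as KC in the mouse, was close to the limit of detection with PBS. It stood at 0.0920, 0.253 and 0.832 FPKM in the PBS libraries, or 1, 3 and 11 fragments. With IL-33 it reached 29.8, 7.65 and 6.22 FPKM, or 347, 84 and 64 fragments. All IL-33 libraries lay above all PBS libraries, which the filter fixed, since no PBS library reached 1 FPKM. IL-33 replicate 1 stood well above the other IL-33 libraries. The mean rose from 0.392 ± 0.389 to 14.5 ± 13.2 FPKM, a ratio of 37.1. Single libraries set the size of that ratio: it was 17.7 without IL-33 replicate 1 and 84.2 without PBS replicate 3. The log2 change of 3.19 (SE 0.52) had an adjusted p of 0.00241 in limma and was 3.00 with equal totals. It lay at percentile 99.8 of all tested genes, and that of Cxcl2 at percentile 99.5. In the fit without the filter, the limma adjusted p of Cxcl1 was 0.00812.

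Cxcl3 did not pass the filter on low values. It was listed at 0.0841, 0.0772 and 0 FPKM with PBS, or 2 fragments in all. With IL-33 it stood at 2.12, 1.00 and 0.801 FPKM, or 27, 12 and 9 fragments. The order of the IL-33 libraries was that of Cxcl1 and Cxcl2, with replicate 1 the highest. Summed fragments per depth gave a ratio of 26.2, with an exact 95% interval of 6.87 to 223 that covers counting error only. In the fit without the filter its log2 change was 1.09 (SE 0.20), with a limma adjusted p of 0.00932. Cxcl2 and Cxcl3 share part of their sequence: 126 runs of 50 exonic bases occur in both, 5.84% of those of Cxcl2 and 3.51% of those of Cxcl3. Some Cxcl3 fragments could therefore belong to Cxcl2, which held 5463 fragments with IL-33 against 48 for Cxcl3.

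Cxcl5, whose main known source is epithelium, lies in the same cluster at chr5:90759360-90761624. It was listed at 0 in 5 libraries and at 0.0466 FPKM in IL-33 replicate 2, which is 1 fragment. No difference was detectable at this depth, and no fold is given. Summed over Cxcl1, Cxcl2, Cxcl3 and Cxcl5, the ELR ligands stood at 18.6, 21.6 and 28.8 FPKM with PBS, against 249, 117 and 94.2 FPKM under IL-33. Cxcl2 made up most of that sum in every library.

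Other genes of the cluster were measured too. Pf4 and Ppbp, the platelet chemokines CXCL4 and CXCL7, lie between Cxcl5 and Cxcl3. Pf4 stood at 2.33, 0.494 and 1.33 FPKM with PBS, against 14.4, 4.26 and 2.28 FPKM under IL-33. Its groups overlapped, and its log2 change of 1.51 missed the threshold (limma adjusted p = 0.0514). It passed in 6 of 16 alternatives, and was 1.99 (limma adjusted p = 0.0196) without IL-33 replicate 3 and 0.88 (0.0968) without IL-33 replicate 1. Ppbp had a log2 change of 0.46 and a limma adjusted p of 0.210, and Cxcl15, a lung chemokine, was listed at 0 in all 6 libraries. The summed level of 6 platelet markers was 1.41 to 2.28 FPKM with PBS, against 2.30 to 5.16 FPKM under IL-33, and its part in the Pf4 values was not tested. Outside the cluster, Cxcl17 was listed at 0 throughout and Cxcl14 only in IL-33 replicates 1 and 2, at 0.196 and 0.0834 FPKM.

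**Figure D2:**
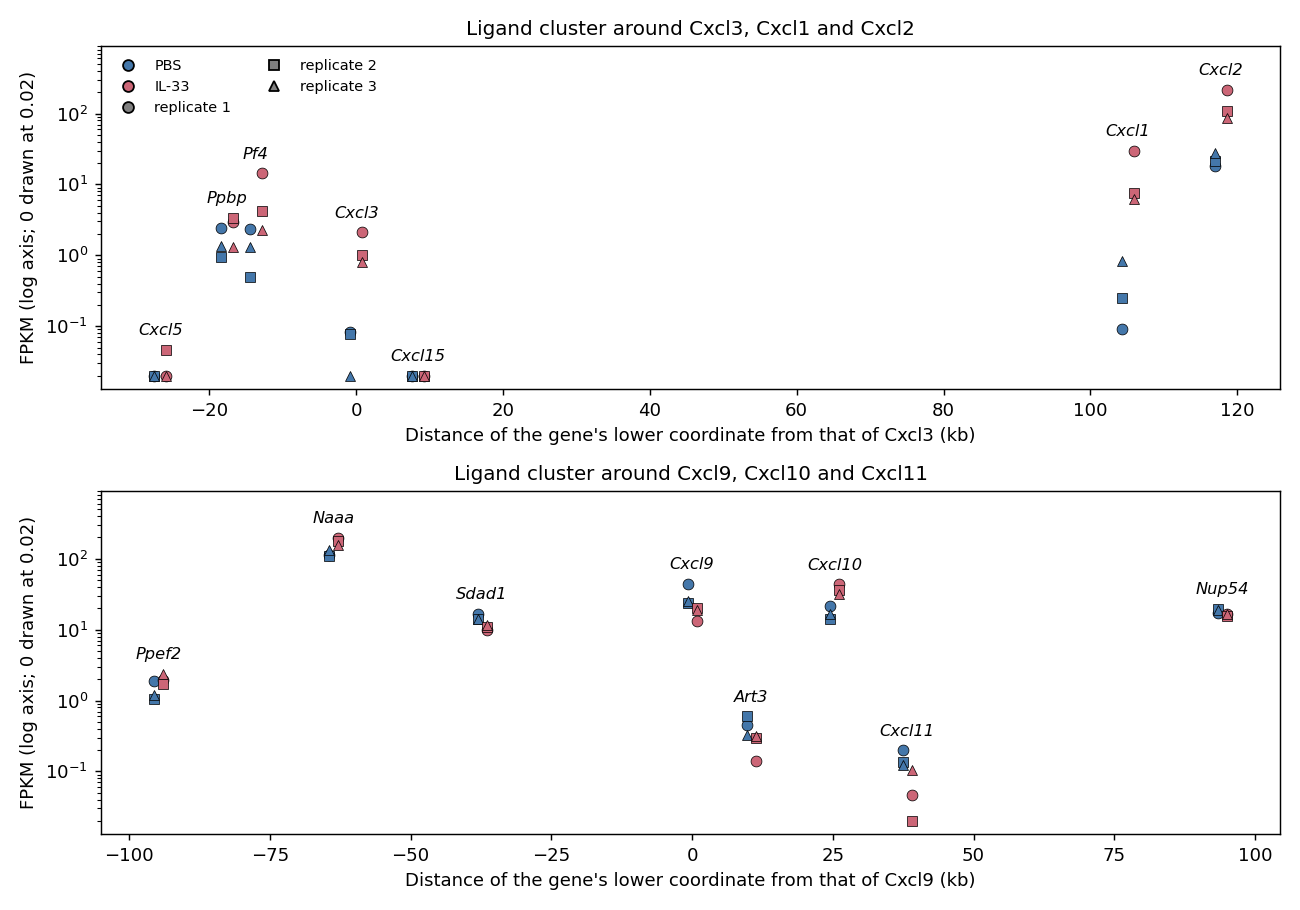
FPKM on a log axis (0 drawn at 0.02) for genes of the ELR ligand cluster (upper panel) and the CXCR3 ligand cluster (lower panel), placed by distance in kb from the lower coordinate of Cxcl3 or Cxcl9; PBS is blue, IL-33 is red, shapes are replicates, and the groups are offset sideways. Cxcl3, Cxcl1 and Cxcl2 are higher with IL-33, while Cxcl9 and Cxcl10 differ in opposite directions within 1 cluster.

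Markers of granulocytes moved in the same direction as the ELR ligands, and so did those of mature dendritic cells. All 6 markers of mature dendritic cells rose, where 28.0% of all tested genes rose. Their sum was 243 to 292 FPKM with PBS, against 500 to 679 FPKM under IL-33. Ccl17, among the 6, was below 1 FPKM in every PBS library, so the filter fixed its direction. The summed level of the 7 matched neutrophil markers was 508 to 823 FPKM with PBS, against 1231 to 2475 FPKM under IL-33, led by S100a8 and S100a9, and 6 of the 7 rose. The other, Csf3r, a receptor of neutrophils, fell from 38.6 ± 3.73 to 26.5 ± 5.51 FPKM (limma adjusted p = 0.0212). Eosinophil markers, led by Ear2 and Prg2, went from 216 to 310 FPKM up to 843 to 1193 FPKM, and 5 of 7 rose. Ear2 made up most of the PBS sum, at 174, 243 and 232 FPKM. For Epx and Ear1, below 1 FPKM in every PBS library, the filter fixed the direction. Ccr3 and Il5ra did not pass, with log2 changes of 0.01 and -0.21. Basophil and mast cell markers, led by Mcpt8 and Prss34, were at 1.24 to 1.80 FPKM with PBS, against 14.9 to 27.5 FPKM under IL-33, and all 4 tested of 7 rose. Those 4, Mcpt8, Prss34, Cpa3 and Cd200r3, were below 1 FPKM in every PBS library. They passed the filter only through the IL-33 libraries, which fixed their direction, so that count adds no support. None of the markers of the 3 granulocyte lists was at 0 in all 6 libraries. The order of the IL-33 libraries differed in part. Replicate 1 was highest for Cxcl1, Cxcl2 and the basophil sum, replicate 2 for the neutrophil sum and replicate 3 for the mature dendritic cell sum. Eosinophil sums of replicates 1 and 2 were close, at 1193 and 1186 FPKM. Among the leading markers, Ear2 and Prss34 were highest in replicate 1, but Prg2 and Mcpt8 in replicate 2. The part of these cells in the ligand values was not tested, and in these bulk samples more cells of a type and more RNA per cell cannot be told apart.

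NF-kB target genes were listed beside the ELR ligands. Of 15 listed genes, all tested, 8 rose, 2 fell and 5 did not pass, with a median change of 0.26. As deposited, 28.0% of all tested genes rose and 25.5% fell. Equal totals gave 6 higher and 6 lower, where 11.1% of all tested genes were higher and 50.7% lower. Tnip3, an inhibitor of NF-kB signalling, rose by 2.95 (limma adjusted p = 5.64e-05), and Il6, a cytokine, rose by 2.42 (limma adjusted p = 0.00103). Il1a, an IL-1 family cytokine, rose by 1.35 (limma adjusted p = 0.00268), and Tnfaip3, the A20 deubiquitinase, by 0.83 (limma adjusted p = 0.00160). All 4 kept their direction and call under all 17 alternatives. Tnip3 and Il6 were below 1 FPKM in every PBS library, so the filter fixed their direction. The 2 that fell were Ccl3, by 0.73 (limma adjusted p = 0.00903), and Ptgs2, by 0.56 (limma adjusted p = 0.0299). Tnf, Il1b, Nfkbiz, Zfp36 and Ccl4 did not pass.

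The CXCR3 ligands did not move as a group: Cxcl9 fell, Cxcl10 rose and Cxcl11 was barely detected. Their genes also lie together on chromosome 5, on the minus strand, with Cxcl9 at chr5:92321347-92328079, Cxcl10 at chr5:92346638-92348889 and Cxcl11 at chr5:92359544-92365485. The 250 bases upstream of Cxcl9 (chr5:92328080-92328329) and Cxcl10 (chr5:92348890-92349139) are shown, on the minus strand, because these neighbours changed in opposite directions. Capitals mark GAAANNGAA, the core of the interferon-stimulated response element, and GGNNNTTCC, a loose kappaB form.
Cxcl9: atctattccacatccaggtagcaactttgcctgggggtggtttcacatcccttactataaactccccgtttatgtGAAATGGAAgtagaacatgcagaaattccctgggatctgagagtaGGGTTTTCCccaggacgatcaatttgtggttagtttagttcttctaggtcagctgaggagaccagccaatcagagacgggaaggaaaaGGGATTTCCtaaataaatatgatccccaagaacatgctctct
Cxcl10: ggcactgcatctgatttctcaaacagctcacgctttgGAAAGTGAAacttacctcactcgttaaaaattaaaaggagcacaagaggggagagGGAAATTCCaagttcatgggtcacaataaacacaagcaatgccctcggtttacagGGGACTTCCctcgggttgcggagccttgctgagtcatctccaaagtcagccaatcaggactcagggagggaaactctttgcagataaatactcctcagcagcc
Both stretches hold 1 match to GAAANNGAA, at -175 in Cxcl9 and -213 in Cxcl10, which 7.13% of RefSeq promoters hold on either strand. Both also hold 2 matches to GGNNNTTCC, at -130 and -42 in Cxcl9 and at -158 and -103 in Cxcl10, against 15.7% of promoters with at least 1. The match at -158 in Cxcl10 is GGAATTTCC read on the opposite strand, the form also found in Cxcl1, Cxcl2 and Cxcl3. GGAATTTCC thus occurred in 4 of the 7 ligands with a RefSeq promoter, and every such match is also a match to GGNNNTTCC. TTCNNNGAA, the gamma-activated site, which 7.02% of promoters hold, had no match in these windows. Cxcl12 and Cxcl13 held none of the motifs searched.

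Cxcl9, the ligand most closely tied to interferon-gamma, was the only tested ligand that fell. It stood at 44.5, 23.7 and 25.1 FPKM with PBS, against 13.2, 20.04 and 18.8 FPKM under IL-33. The groups did not overlap, but PBS replicate 1 was far above the other PBS libraries, and IL-33 replicate 1 was the lowest of all. The mean went from 31.1 ± 11.6 to 17.3 ± 3.66 FPKM, a ratio of 0.558. Its log2 change of -0.77 (SE 0.25) had a limma adjusted p of 0.0350. The call was lost in 7 of 17 alternatives, with adjusted p of 0.00966 to 0.112 over all of them. Among these, leaving out PBS replicate 1 gave -0.49 (limma adjusted p = 0.0558), IL-33 replicate 1 gave -0.59 (0.112) and IL-33 replicate 3 gave -0.84 (0.0579). With equal totals the change was -1.10.

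Cxcl10, known as IP-10 and also induced by interferon, rose. It stood at 21.5, 14.4 and 16.6 FPKM with PBS, against 43.4, 35.9 and 31.6 FPKM under IL-33, so that all IL-33 libraries were above all PBS libraries. The mean went from 17.5 ± 3.66 to 37.0 ± 6.01 FPKM, a ratio of 2.11. The log2 change was 1.04 (SE 0.16) with a limma adjusted p of 0.00212, and 0.71 with equal totals. Cxcl10 lies within the span of Art3 on the other strand, and the authors' use of strand is not given in the sources used here. Art3 was at 0.141 to 0.600 FPKM, below the Cxcl10 level in every library.

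The balance between the neighbours therefore turned over. The ratio of Cxcl10 to Cxcl9 in FPKM was 0.485, 0.607 and 0.664 with PBS and 3.30, 1.79 and 1.68 with IL-33. Cxcl9 exceeded Cxcl10 in every PBS library, and Cxcl10 exceeded Cxcl9 in every IL-33 library. The groups of both genes lay apart, in opposite directions. An exact two-sided permutation test of their difference in log2(FPKM + 1) was thus bound to give p = 0.1, and adds no support. That is the smallest p that 3 against 3 libraries allow. The sum of Cxcl9, Cxcl10 and Cxcl11 overlapped between groups, at 66.2, 38.2 and 41.8 FPKM with PBS, against 56.7, 55.9 and 50.5 FPKM under IL-33.

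Cxcl11 held few fragments. It was listed at 0.198, 0.136 and 0.122 FPKM with PBS (4, 3 and 3 fragments) and at 0.0461, 0 and 0.105 FPKM with IL-33 (1, 0 and 2 fragments). The ratio of summed fragments per depth was 0.327, with an exact 95% interval of 0.0579 to 1.27 for counting error only. The groups did not overlap, and the fit without the filter gave a log2 change of -0.13 (limma adjusted p = 0.0687). Leaving out IL-33 replicate 3 gave -0.17 (limma adjusted p = 0.040). At this depth a difference was thus not settled. GENCODE M21 lists Cxcl11 as a polymorphic pseudogene, a gene that is intact in some mouse strains and disrupted in others. It lies within Art3 as well, whose level was higher than its own in all 6 libraries, so its values are uncertain.

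Other genes around Cxcl9 and Cxcl10 also moved in both directions. Naaa, a lysosomal amidase, rose by 0.59 (limma adjusted p = 0.00332), a call lost with quantile normalization (0.25) and cyclic loess (0.23), and Sdad1 fell by 0.45 (limma adjusted p = 0.00620). Ppef2 had a log2 change of 0.36 and Nup54, a nuclear pore protein, of -0.19, and neither passed (limma adjusted p = 0.0857 and 0.0580). With equal totals Nup54 was at -0.51 (limma adjusted p = 0.000998).

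Of the interferon-stimulated genes, a share near that of all genes rose. Of 20 listed, 19 were tested, 5 rose, 2 fell and 12 did not pass, with a median change of 0.07. The share of all tested genes was 28.0% higher and 25.5% lower. Equal totals gave 2 higher and 10 lower, also near the shares of all genes, 11.1% and 50.7%. Isg15, a ubiquitin-like protein, rose by 1.28 (limma adjusted p = 0.000201), and Gbp2, a guanylate-binding protein, rose by 1.48 (limma adjusted p = 0.000982). Socs1, a brake on cytokine signalling, rose by 0.40 and Rsad2, the antiviral viperin, by 0.33 (limma adjusted p = 0.00717 and 0.0107), and both lost the call with equal totals. Isg15 and Gbp2 kept theirs under all 17 alternatives.

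Interferon-gamma itself, the known inducer of Cxcl9, was at 17.1, 16.5 and 52.3 FPKM with PBS, against 8.52, 14.4 and 9.23 FPKM under IL-33. PBS replicate 3, which also had the highest T cell marker sum, stood far above the rest. The groups of Ifng did not overlap, and its log2 change of -1.17 missed the threshold (limma adjusted p = 0.0502). Of 8 genes listed for interferon-gamma and its receptor, 2 rose, 1 fell and 5 did not pass, with a median change of -0.14, and equal totals gave 1 higher and 5 lower. All tested genes had shares of 28.0% higher and 25.5% lower as deposited, and 11.1% and 50.7% with equal totals. Il18, a cytokine that induces interferon-gamma, rose by 0.92 (limma adjusted p = 0.00699), and Jak1, a receptor kinase, fell by 0.44 (limma adjusted p = 0.00190). Ifngr2, a receptor chain, rose by 0.24 (limma adjusted p = 0.0151), a change that was -0.10 with equal totals. Beside the fall of Cxcl9, all 7 NK cell markers and all 8 T cell markers fell. Their sums were 447 to 510 FPKM and 173 to 379 FPKM with PBS, and 179 to 286 FPKM and 65.2 to 86.1 FPKM with IL-33. Of 6 plasmacytoid dendritic cell markers 5 fell, and their sum went from 125 to 210 FPKM down to 81.6 to 89.9 FPKM. Of 7 type 1 conventional dendritic cell markers, 4 fell and 2 rose. PBS replicate 1, where Cxcl9 was highest, had the highest B cell marker sum, 708 FPKM against 297 to 462 FPKM elsewhere. It also had the lowest splenic macrophage marker sum, 2630 FPKM against 3784 to 5165 FPKM elsewhere. The part of these cells in the Cxcl9 values was not tested.

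**Figure D3:**
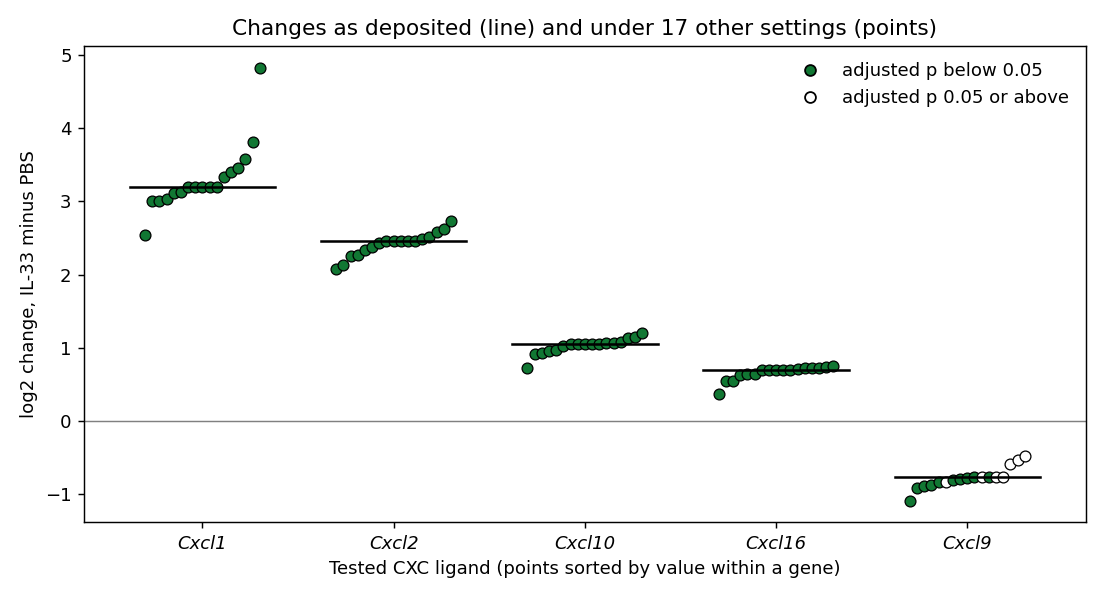
Log2 change (IL-33 minus PBS) of the 5 tested ligands as deposited (line) and under each of 17 other settings (points, sorted by value within a gene; filled where the limma adjusted p was below 0.05). Cxcl1, Cxcl2, Cxcl10 and Cxcl16 stay filled throughout, and 7 points of Cxcl9 are open.

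Cxcl16, the membrane-bound ligand of CXCR6, had the smallest change of the 4 ligands that rose, and the smallest SE. It stood at 27.5, 33.2 and 32.0 FPKM with PBS, against 48.0, 49.1 and 54.9 FPKM under IL-33. All IL-33 libraries lay above all PBS libraries. The mean went from 30.9 ± 3.01 to 50.6 ± 3.71 FPKM, a ratio of 1.64. The log2 change of 0.70 (SE 0.09) had a limma adjusted p of 0.00121, and 0.37 remained with equal totals (limma adjusted p = 0.0122). Its gene, at chr11:70453983-70459984 on the minus strand, overlaps the start of Zmynd15 on the plus strand. Zmynd15 stood at 7.59, 5.86 and 6.74 FPKM with PBS, against 10.1, 10.9 and 12.6 FPKM under IL-33, and it rose by 0.66 (limma adjusted p = 0.00297). Without knowledge of strand use, fragments of the overlap cannot be assigned to 1 of these genes.

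Proteases that act on chemokines were listed beside it. Of 6 genes, 5 were tested, 2 rose, 1 fell and 2 did not pass, with a median change of 0.14, and equal totals gave 1 higher and 2 lower. For all tested genes the shares were 28.0% higher and 25.5% lower as deposited, and 11.1% and 50.7% with equal totals. Adam10, the sheddase of Cxcl16, rose by 0.34 (limma adjusted p = 0.00357), and this was 0.01 with equal totals. Mmp8, a neutrophil collagenase, rose by 0.84 (limma adjusted p = 0.00947). Mmp9, a gelatinase that trims ELR ligands, fell by 0.75 (limma adjusted p = 0.0488), a call lost in 11 of 17 alternatives.

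Cxcl12 and Cxcl13, the homeostatic ligands, were low in all 6 libraries and did not differ detectably. Cxcl12, at chr6:117168535-117181367, stood at 0.491, 0.466 and 0.215 FPKM with PBS, against 0.431, 0.555 and 0.403 FPKM under IL-33, with overlapping groups. The fit without the filter gave a log2 change of 0.08 (limma adjusted p = 0.558), and -0.02 without PBS replicate 3. Cxcl13, at chr5:95956951-95961068, stood at 0.214, 0.393 and 0.529 FPKM with PBS, against 0.599, 0.283 and 0.680 FPKM under IL-33. That is 18 fragments against 22, a ratio per depth of 1.33 (exact 95% interval 0.683 to 2.64, counting error only), and the fit without the filter gave 0.14 (limma adjusted p = 0.456). Markers of stromal cells, the usual source of both, summed to 1.54 to 3.14 FPKM with PBS, against 1.22 to 1.86 FPKM under IL-33 over 10 genes, of which 1, Ccl19, passed the filter.

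Genes of the lymphotoxin pathway, the known inducer of Cxcl13, rose and fell in equal number. Of 8 genes, all tested, 3 rose and 3 fell, with a median change of -0.02, and equal totals gave 1 higher and 4 lower. Of all tested genes, 28.0% rose and 25.5% fell as deposited. Under equal totals the shares of this list are near those of all tested genes, 11.1% higher and 50.7% lower. Ltb, the membrane subunit of the ligand, fell by 0.97 (limma adjusted p = 0.000697), and its receptor Ltbr rose by 0.73 (limma adjusted p = 0.00202). Relb, the NF-kB subunit downstream, fell by 0.34 (limma adjusted p = 0.00516). Tnfrsf1a, a TNF receptor, rose by 0.31 as deposited and was at -0.02 with equal totals.

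Summed over the family, the ligand level was higher with IL-33 and its make-up shifted from Cxcl9 toward Cxcl2. The sum of all 10 ligands was 113, 93.9 and 103 FPKM with PBS, against 355, 223 and 201 FPKM under IL-33 (exact permutation p = 0.1, the smallest possible). Cxcl2 made up 22.0% ± 5.40 of that sum with PBS and 51.1% ± 9.15 with IL-33. Cxcl9 went from 29.6% ± 8.45 to 7.35% ± 3.16, and the groups did not overlap for either. The shares of Cxcl16 (30.2% ± 5.55 and 21.0% ± 6.98) and Cxcl10 (16.8% ± 1.98 and 14.7% ± 2.12) overlapped between groups. Since FPKM is per length, levels of different genes can be ranked. With PBS, Cxcl9, Cxcl16, Cxcl2 and Cxcl10 formed the top 4, and neighbours in that order overlapped. A gap followed to Cxcl1, Cxcl12 and Cxcl13, which overlapped too, and then came Cxcl11, Cxcl3 and Cxcl5. With IL-33 the order was Cxcl2, Cxcl16, Cxcl10 and Cxcl9, each apart from the next, then Cxcl1, which overlapped Cxcl9, and Cxcl3. Cxcl13 and Cxcl12 overlapped each other below these, as did Cxcl11 and Cxcl5.

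**Figure D4:**
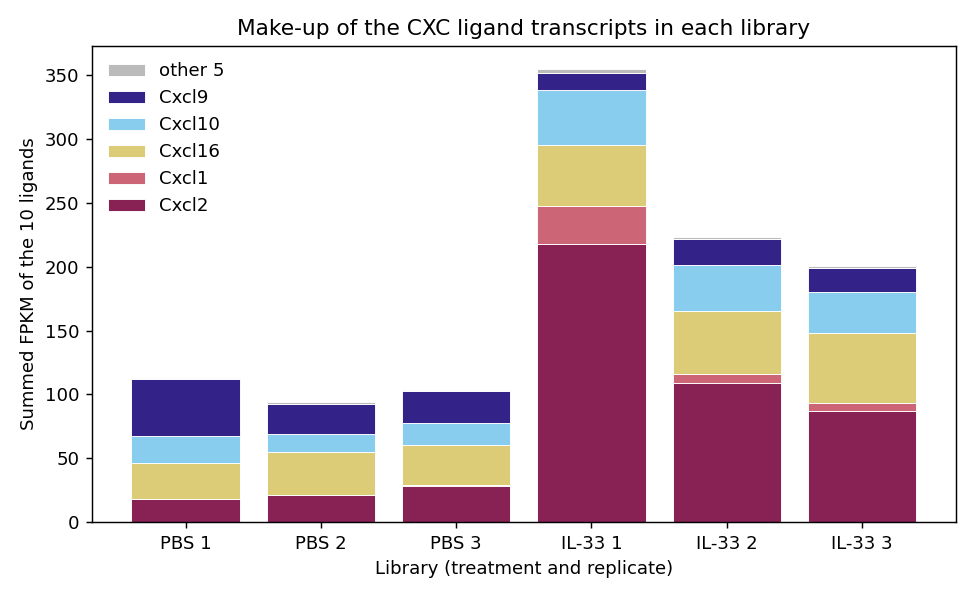
Summed FPKM of the CXC ligands in each of the 6 libraries, stacked by gene from 0. The Cxcl2 share is larger and the Cxcl9 share smaller in all 3 IL-33 libraries, whose sums of 201 to 355 FPKM exceed the PBS sums of 93.9 to 113 FPKM.

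The receptors of these ligands were also measured in the same libraries. Of 8 receptor genes, 7 were tested, 3 rose, 2 fell and 2 did not pass, with a median change of -0.23, and equal totals gave 1 higher and 4 lower. Over all tested genes, 28.0% rose and 25.5% fell as deposited, against 11.1% and 50.7% with equal totals. Cxcr2, the receptor of the ELR ligands, stood at 7.44 ± 1.88 FPKM with PBS, against 6.10 ± 1.06 FPKM under IL-33, with overlapping groups (limma adjusted p = 0.315, and a log2 change of -0.53 with 0.0364 under equal totals), and Cxcr1 was below the filter. Cxcr3, the receptor of Cxcl9, Cxcl10 and Cxcl11, stood at 11.7, 9.24 and 21.5 FPKM with PBS, against 4.63, 5.20 and 6.07 FPKM under IL-33. It fell by 1.19 (SE 0.27, limma adjusted p = 0.00835), under all 17 alternatives, beside the T and NK cell markers named above. Cxcr6, the receptor of Cxcl16, stood at 3.32, 1.41 and 13.5 FPKM with PBS, against 0.829, 0.961 and 0.812 FPKM under IL-33. The groups did not overlap, which the filter fixed, since no IL-33 library reached 1 FPKM. PBS replicate 3 was far above the others, and the log2 change of -1.51 missed the threshold (limma adjusted p = 0.0561). It passed in 6 of 16 alternatives, among them leaving out PBS replicate 3, which gave -0.79 (limma adjusted p = 0.0317), and equal totals, which gave -1.72 (0.0299).

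Receptors of the homeostatic ligands were higher with IL-33 as deposited. Cxcr4, the receptor of Cxcl12, rose from 232 ± 12.9 to 309 ± 11.7 FPKM, a log2 change of 0.41 (limma adjusted p = 0.00273). With equal totals it was 0.07, and the call was lost under all 3 other scalings. Cxcr5, the receptor of Cxcl13, stood at 12.5, 4.81 and 4.21 FPKM with PBS, against 16.1, 14.7 and 13.1 FPKM under IL-33. It rose by 1.07 (limma adjusted p = 0.0285), and the call was lost in 8 of 17 alternatives. Ackr3, a scavenger of CXCL12, stood at 1.04, 0.650 and 0.368 FPKM with PBS, against 2.58, 2.44 and 2.76 FPKM under IL-33, and rose by 1.11 (limma adjusted p = 0.00148). Ackr1, which binds many inflammatory chemokines without signalling, fell by 0.55 (limma adjusted p = 0.00415). Ackr3 and Ackr1 kept their calls under each alternative that gave them a value.

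**Figure D5:**
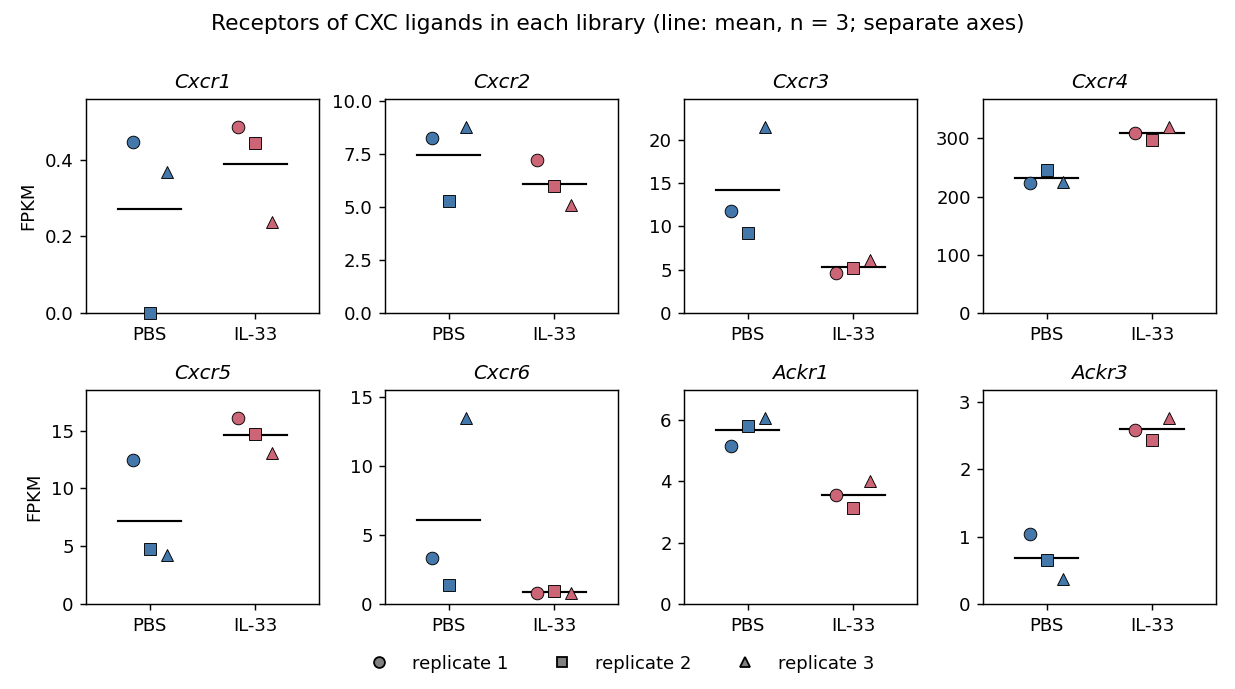
FPKM of the CXC receptors in the 3 PBS and 3 IL-33 libraries (points), with the mean of each group as a line. Cxcr3 and Ackr1 are lower with IL-33, Ackr3, Cxcr4 and Cxcr5 are higher, and Cxcr2 overlaps.

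For each tested ligand, the 3 tested genes with the nearest profile over the 6 libraries were found by Euclidean distance between mean-centred log2(FPKM + 1) values. For Cxcl2 these were Il6 at a distance of 0.464, Prss34 at 0.497 and Ltc4s at 0.554. For Cxcl1 they were Ear7 at 1.19, Ltc4s at 1.25 and F7 at 1.26. Ltc4s appeared for both, and IL-33 replicate 1 was its highest library, at 26.6 FPKM, as for Cxcl1 and Cxcl2. Cxcl10 had Bad at 0.203, Ropn1l at 0.206 and Fam132a at 0.217, and Cxcl16 had Eif1a at 0.0834, Prosc at 0.0856 and Gdi2 at 0.110. Cxcl9 had Kcna3 at 0.334, Leng8 at 0.356 and Hip1r at 0.398, all highest in PBS replicate 1 and lowest in IL-33 replicate 1, as Cxcl9 was.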

How the data were processed

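RNA sequencing libraries of splenic CD11c+ cells, 3 treated with IL-33 and 3 with PBS, came from DNase-treated total RNA and a stranded mRNA kit, per the labels' protocols. The authors deposited 1 table per library with an FPKM value for each gene. Reads were handled with Cuffnorm 2.2.1, SAMtools 0.1.19, Bowtie2 2.2.3 and TopHat2 2.0.13 on the build mm10, per the submitters' processing notes. The annotation, strand use and scaling between libraries were not given in the sources used here. With no deposited counts, no count model was run, and fragment numbers rest on reading the smallest common step as 1 fragment (tolerance 0.02).

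Values were analysed as log2(FPKM + 1) with limma 3.58.1 in R 4.3.3 (variance trend, treatment only, two-sided, Benjamini-Hochberg over all tested genes), which was tested on simulated data. Alternatives were other pseudocounts (0.1, 0.5), no filter or 5 FPKM, 3 scalings, 3 variance or weight settings, the replicate block and leaving out each library. Named were all members, CXC receptors and other CXC ligands, up to 4 called genes per pathway list, the leading 2 markers per cell type used and the 3 nearest profiles per ligand. Itgax, Flt3, Zbtb46, Csf3r, Ifng, Art3, Zmynd15 and the chromosomal neighbours were named after their values were seen, as was the choice of promoter motifs. Also named after that were H2-Ab1, Ccl17, Epx, Ear1, Ccr3, Il5ra, Cpa3, Cd200r3 and the NF-kB target genes that did not rise. The members and lists were chosen with earlier results of these data known. Positions are from GENCODE M21, and promoters from RefSeq (GRCm38.p6), where 7 of 10 members were matched. Python 3.11.15, pandas 2.3.3, numpy 2.4.6, scipy 1.17.1 and matplotlib 3.10.9 were used.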

Additional observations from a re-analysis of the deposited data

How the results depend on the processing

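Cxcl1, Cxcl2, Cxcl10 and Cxcl16 kept their direction and call under all 17 alternatives, with log2 changes of 2.54 to 4.83, 2.08 to 2.73, 0.71 to 1.19 and 0.37 to 0.75. Cxcl9 kept its direction throughout. The number of CXC ligands that fell was 0 without the filter, with robust variance, with library weights and with the replicate block, and 0 to 1 when each library was left out in turn. For Cxcl9 these fits gave limma adjusted p of 0.0708, 0.0540, 0.0593 and 0.0663. The cause was not tested. Equal totals gave 1280 genes higher and 5840 lower, where the values as deposited gave 3230 and 2939, or 18.0% against 52.4% of calls higher. That scaling turned Ifngr2 (-0.10) and Tnfrsf1a (-0.023). Cxcl12 turned (-0.0168) without PBS replicate 3, within a range of -0.0168 to 0.131 when each library was left out, and Cxcl5 has no value without IL-33 replicate 2.

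Whether the replicate numbers pair the libraries could not be settled. Deviations of same-numbered libraries correlated at 0.075, -0.0544 and 0.089, and those of differently numbered libraries at -0.113 to 0.0556. Replicates 1 and 3 correlated best with their own number, and replicate 2 did not. With 3 libraries per group, such correlations cannot exclude pairing. The fit with the replicate block gave 2806 genes higher and 2452 lower. Cxcl3, Cxcl5, Cxcl11 and Cxcl13 rest on at most 48 fragments a group, which limits their precision.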
